A study of Homo sapiens with 18 samples.

Results

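RNF and TRIM genes encode RING finger and tripartite motif proteins, most of which are E3 ubiquitin ligases. The 65 genes described here are those in the deposited table whose symbol is RNF or TRIM followed by a number and at most 1 letter: 44 RNF and 21 TRIM genes of 8996 genes in all. The rule uses names and no measured value. RNF168 is singled out among them, a choice made with its values in this table already known.

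Half-lives came from SLAM-seq of HEK293T WT cells, an established line from human embryonic kidney. In SLAM-seq, cells take up the uridine analogue s4U, and alkylated s4U is read as T-to-C conversions that mark new RNA. Cells were held for 3 h in DMSO, the solvent control, or in STM2457, an inhibitor of the m6A methyltransferase METTL3, and were then given s4U at 100 µM for 90 or 180 min, or none. There were 18 samples, 3 for each of the 6 combinations. The table holds 1 fitted half-life and 1 fitted synthesis rate per gene and treatment, from 9 samples per treatment at most, with no replicate values, intervals or counts. No error, test or depth can therefore be given, and every difference below is between 2 fitted values. The time unit is not named, and hours are inferred without a direct check. The largest half-life, 69.3, equals ln 2 divided by 0.01, which alone does not fix the unit. Every value in h below, and the limit set by the time of treatment, rests on this inference. The table has no expression levels, so the identity of the cells could not be checked by them: 5 of 9 marker genes of HEK293 cells (among them NEFL, NEFM, INA and VIM) and 2 of 10 of other cell types (COL1A1 and CDX2) were among its genes.

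A RING ligase binds a ubiquitin-loaded E2 enzyme and a substrate at once and so brings ubiquitin to the substrate. TRIM proteins carry a RING finger, in most members, followed by B-boxes and a coiled coil, and differ in their C-terminal domains. RNF names mark a RING finger only, and the proteins that bear them are otherwise unrelated in many cases. Many of these ligases regulate fast processes such as DNA damage signalling, NF-kappaB signalling and protein quality control. The methyl mark m6A is laid down on mRNA at the motif DRACH (A, G or T, then A or G, then A, C and finally A, C or T), of which the A before the C is methylated, mostly away from exon junctions, and it is known to shorten the life of many mRNAs.

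In DMSO, the ligase mRNAs had a median half-life of 2.95 h (quartiles 1.85 and 5.36 h), against 5.61 h over all genes (quartiles 2.99 and 10.4 h). RNF4, a SUMO-targeted ligase, was the shortest-lived at 0.897 h, followed by RNF219, a ligase of the origin recognition complex, at 0.987 h and RNF113A, a spliceosome protein, at 1.11 h. RNF181 was the longest-lived at 38.1 h, followed by RNF10 at 14.8 h and RNF7, the RING subunit of cullin-5 ligases, at 10.2 h. Among TRIM genes the range was narrower. TRIM59 had 1.22 h, TRIM52 had 1.33 h and TRIM13 had 1.40 h at the short end, while TRIM25, the ligase that activates the RNA sensor RIG-I, had 5.84 h, TRIM14 had 7.97 h and TRIM28 had 10.7 h at the long end. The median was 3.07 h for RNF genes and 2.30 h for TRIM genes, a difference of 0.42 on the log2 scale that is small beside the quartiles of either family (2.34 and 6.54 h for RNF, 1.59 and 4.59 h for TRIM).

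A gene is called longer-lived here where its half-life in STM2457 was more than 1.5 times that in DMSO, and shorter-lived where it was less than the inverse. Of the 65 ligases, 18 (27.7%) were longer-lived, near the 28.5% of all genes in the table, and 12 (18.5%) were shorter-lived, against 24.9% of all genes. The other 35 lay within the limits. The median log2 ratio of half-lives, STM2457 over DMSO, was 0.04, with quartiles of -0.50 and 0.75. For all genes it was -0.01, with quartiles of -0.58 and 0.73. As a group the ligases thus stood close to the table as a whole. Just outside the upper limit on the log2 scale lay TRIM4 at 0.70 and RNF4 at 0.75, and just within it RNF26 at 0.57 and RNF41 at 0.55. At the lower limit, RNF115 and RNF150, both at -0.59, were called and RNF170 at -0.56 and RNF114 at -0.55 were not.

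**Figure D1:**
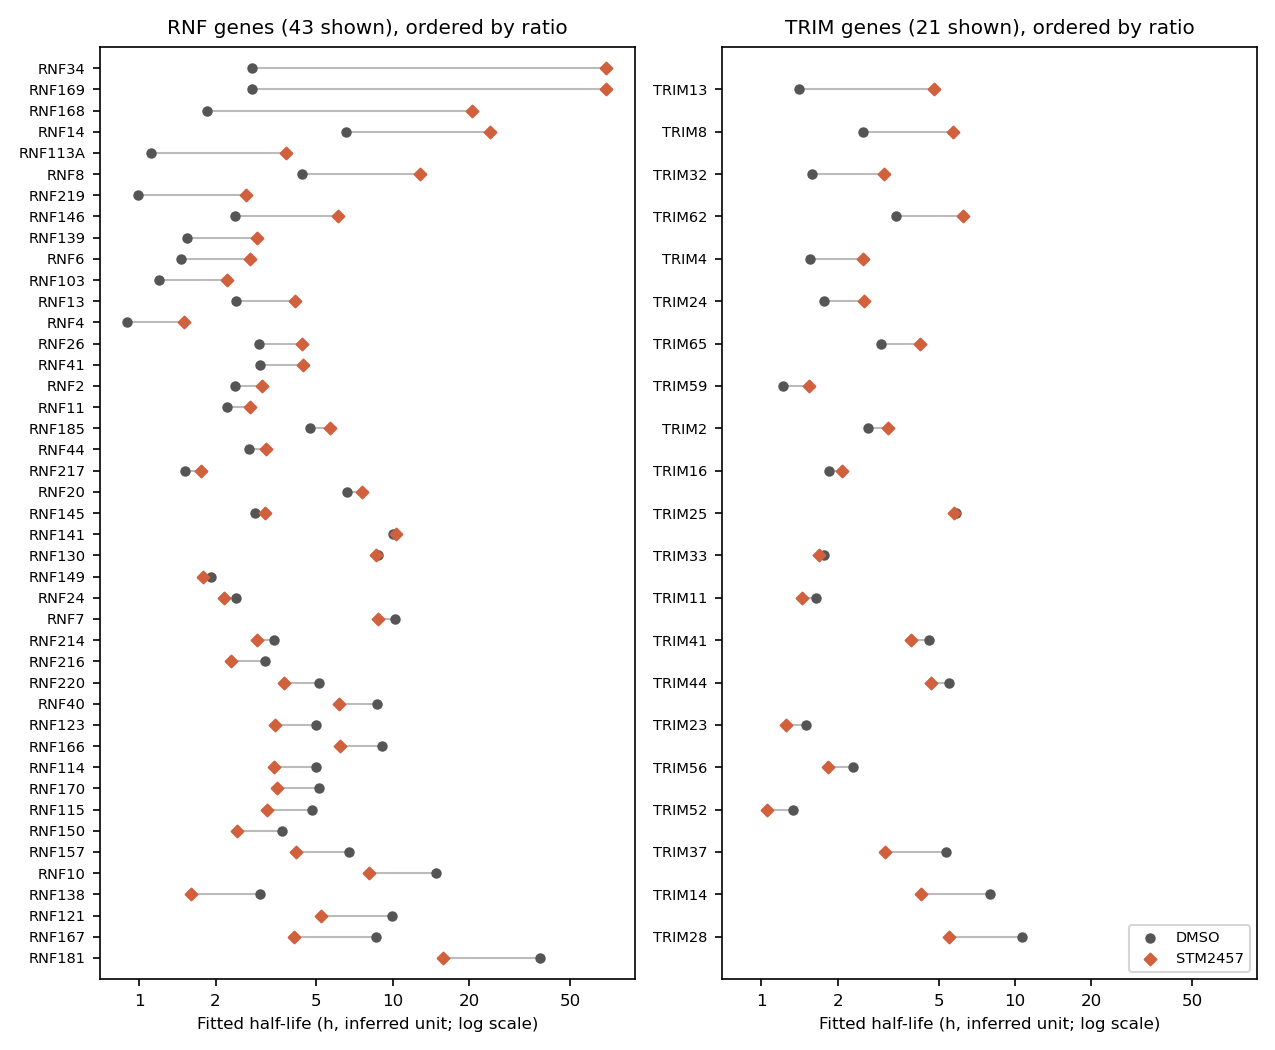
Fitted half-life (log axis, inferred hours) of each RNF gene (left, n = 44) and TRIM gene (right, n = 21) in DMSO (grey circles) and STM2457 (orange diamonds), ordered by their ratio, with 1 fitted value per point and 1 RNF gene not shown. RNF34, RNF169 and RNF168 at the top of the left panel have the longest connecting lines, while the TRIM genes stay between 1.06 and 10.7 h.

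RNF against TRIM genes gave similar centres and different ranges. Among RNF genes 13 were longer-lived, with 9 shorter-lived and 22 inside the limits, with a median log2 ratio of 0.08. The TRIM genes gave 5, 3 and 13, with a median of -0.03. The difference between the medians, 0.11, is small beside the quartiles within each family, which were -0.55 and 0.80 for RNF and -0.26 and 0.53 for TRIM. RNF ratios ran from -1.27 to 4.64, and TRIM ratios from -0.96 to 1.77. The 4 largest ratios all belonged to RNF genes: RNF34, RNF169, RNF168 and RNF14. The fits of all 4 exceed a limit set by the time of treatment, explained below. Beneath them, RNF113A had 1.77, level with the highest TRIM gene, TRIM13. The families also differ in size, 44 against 21 genes, which by itself can widen a range. RNF34 and RNF169 were the 2 ligases at the ceiling of 69.3 h in STM2457, where 10.9% of all genes lay. No ligase was there in DMSO, where 2.55% of all genes lay.

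**Figure D2:**
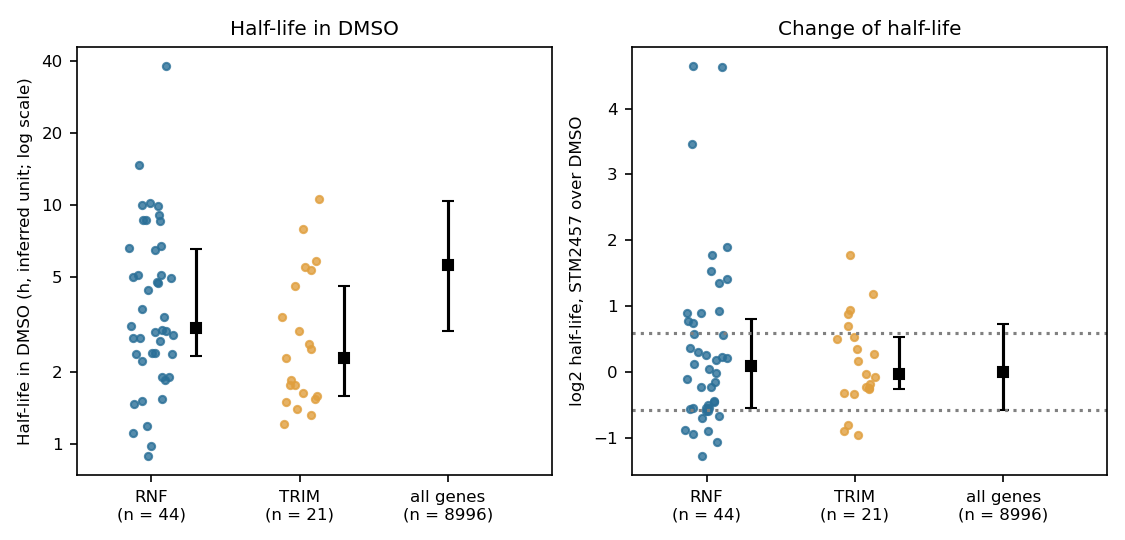
Half-life in DMSO (left, log axis, inferred hours) and log2 ratio of half-lives (right) for each RNF gene (n = 44) and TRIM gene (n = 21), with black squares and bars for the median and quartiles of RNF, TRIM and all 8996 genes, and dotted lines at 1.5-fold. The bars of both families overlap in both panels, and 4 RNF genes lie above the highest TRIM gene at 1.77.

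RNF168 (ENSG00000163961.4, chromosome 3, 196468783 to 196503768, minus strand, GRCh38) encodes the ligase that ubiquitinates histone H2A beside DNA double-strand breaks, the mark that recruits 53BP1 and BRCA1 complexes. Its half-life was 1.85 h with DMSO and 20.4 h with STM2457, an 11.0-fold difference and a log2 ratio of 3.46. In DMSO it was the 17th shortest-lived of the 65, at the first quartile. In STM2457 it was the 4th longest-lived, after RNF34, RNF169 and RNF14. Its ratio ranked 3rd among the ligases, and 1st among the 61 whose half-lives in both treatments lay from 0.5 to 24 h. In the whole table it ranked 300th, above 96.7% of the other genes, so a place at the top of its family is not a place at the top of the table. Its fitted synthesis rate was 360 in DMSO, the 5th highest of the ligases, and 224 in STM2457, in the authors' unnamed unit, a log2 ratio of -0.69.

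The ligases on either side of it were RNF34 and RNF169 above and RNF14 below. RNF34 (ENSG00000170633.16), which binds phosphoinositides and targets caspases, had 2.78 h with DMSO and reached the ceiling, 69.3 h, with STM2457. RNF169 (ENSG00000166439.6), a close relative of RNF168 that binds the same ubiquitin mark and limits 53BP1 recruitment, had 2.79 h and also 69.3 h. A value at the ceiling is a lower bound, at least 24.95-fold for RNF34 and at least 24.8-fold for RNF169, so both lie above RNF168 in these fits and their own order is not defined. RNF14, a RING-between-RING ligase first described as an androgen receptor coactivator, went from 6.52 to 24.2 h, a log2 ratio of 1.89.

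The stretch of coding sequence with the most DRACH motifs at least 100 bases from an exon junction is shown for 4 ligases. The number of such motifs is the feature beside which the ratios below are set. The first pair, RNF168 and RNF169, had large ratios. TRIM28 was shorter-lived and has 3 such motifs, of 37 DRACH motifs in its coding sequence at any distance from a junction. TRIM56, a ligase of antiviral signalling, has 38 such motifs of 39. It stayed within the limits at 2.30 h with DMSO and 1.83 h with STM2457. Each line is the coding strand of 300 bases within 1 exon, from GENCODE release 29 (GRCh38), and capitals mark DRACH motifs on that strand, overlaps included, whose methylatable A lies at least 100 bases from an exon junction. The windows are chr3:196472196-196472495 (minus strand, exon 6 of 6) for RNF168, chr11:74836110-74836409 (plus strand, exon 6 of 6) for RNF169, chr19:58549331-58549630 (plus strand, exon 13 of 17) for TRIM28 and chr7:101088383-101088682 (plus strand, exon 3 of 3) for TRIM56.
RNF168: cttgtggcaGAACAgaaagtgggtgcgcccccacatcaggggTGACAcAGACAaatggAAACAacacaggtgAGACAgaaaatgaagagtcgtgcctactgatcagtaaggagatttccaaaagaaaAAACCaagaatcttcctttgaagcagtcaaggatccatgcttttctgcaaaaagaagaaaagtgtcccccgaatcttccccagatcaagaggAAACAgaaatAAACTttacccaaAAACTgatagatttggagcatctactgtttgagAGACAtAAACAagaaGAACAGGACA
RNF169: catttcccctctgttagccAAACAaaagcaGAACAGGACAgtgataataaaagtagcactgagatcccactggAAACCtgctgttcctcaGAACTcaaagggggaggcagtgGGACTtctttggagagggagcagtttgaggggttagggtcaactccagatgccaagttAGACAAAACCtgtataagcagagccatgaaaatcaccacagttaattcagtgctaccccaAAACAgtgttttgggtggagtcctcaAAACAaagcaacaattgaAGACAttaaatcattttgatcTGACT
TRIM28: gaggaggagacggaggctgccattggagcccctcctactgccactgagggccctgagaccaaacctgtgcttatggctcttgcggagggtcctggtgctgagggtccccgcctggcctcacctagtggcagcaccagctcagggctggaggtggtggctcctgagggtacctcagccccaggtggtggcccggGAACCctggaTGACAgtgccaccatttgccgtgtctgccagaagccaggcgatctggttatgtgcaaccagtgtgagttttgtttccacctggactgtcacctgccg
TRIM56: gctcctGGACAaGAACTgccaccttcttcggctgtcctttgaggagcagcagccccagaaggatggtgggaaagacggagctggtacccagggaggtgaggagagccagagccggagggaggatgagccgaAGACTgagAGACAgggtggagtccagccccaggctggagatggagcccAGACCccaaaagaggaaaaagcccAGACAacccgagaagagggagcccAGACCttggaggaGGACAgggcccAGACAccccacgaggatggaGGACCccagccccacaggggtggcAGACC

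The RNF168 window holds 13 such motifs and the RNF169 window 12, spread over most of its length. Of 3814 genes in the table with a coding exon of at least 300 bases, 8.05% had a window as dense as that of RNF168 and 12.8% as dense as that of RNF169. The TRIM56 window holds 11, matched by 19.5% of those genes, and the TRIM28 window 2, matched by 93.5%. A motif is common in itself: 98.3% of 12241 windows of that length tiled over coding exons hold at least 1 DRACH match, at any distance from a junction. The letters show where m6A could be placed, and methylation was not measured here.

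Far coding motifs, as the capitals above are called from here on, differed widely among the ligases. Of the 65, 29 (44.6%) had 10 or more, against 25.3% of all genes with a coding transcript. RNF6 had the most, 48, followed by TRIM56 with 38 and RNF219 with 35, and RNF168 was 9th with 26. The median was 4 for RNF genes and 11 for TRIM genes, against 3 for all genes. This count follows exon structure: the longest coding exon had a median of 356 bases in RNF genes, 581 in TRIM genes and 265 in all genes.

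The ligases were set in classes by far coding motifs and compared with all genes in the same classes. With 10 or more, 15 of 29 were longer-lived and 0 shorter-lived, with a median log2 ratio of 0.70. With 4 to 9, 2 of 17 were longer-lived and 5 shorter-lived, with a median of -0.24. With 0 to 3, 1 of 19 was longer-lived and 7 shorter-lived, with a median of -0.55. The same classes over all genes had medians of 0.47, -0.03 and -0.22, with 45.6% longer-lived and 10.6% shorter-lived in the top class. In the middle class they were 26.3% and 23.4%, and in the lowest class 21.1% and 32.2%, so the share of shorter-lived ligases there was near that of all genes. The order of the classes is therefore that of the whole table,, with a wider step between few and many among the ligases that was not tested. The Spearman correlation of motif number and log2 ratio was 0.595 over the 65 ligases and 0.261 over 8611 genes, which are not independent replicates. For DRACH motifs of the 3′ untranslated region at least 100 bases from a junction it was -0.01 over the ligases and 0.06 over all genes. The longest coding exon gave 0.542 over the ligases and 0.250 over all genes, and coding length as a whole 0.07 and 0.01.

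**Figure D3:**
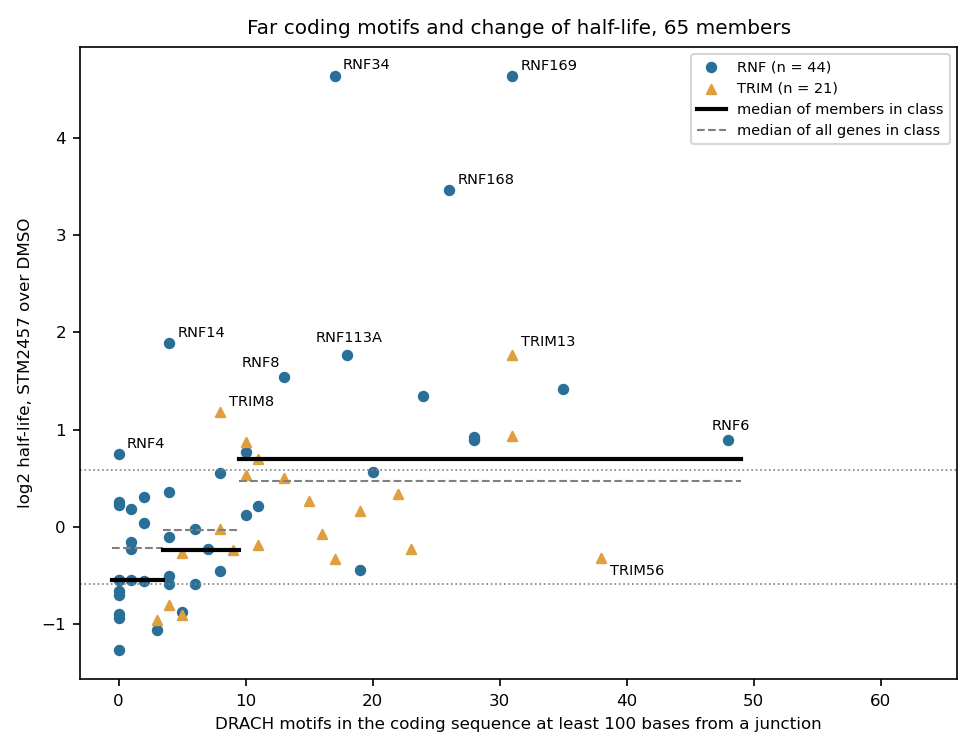
Log2 ratio of half-lives, STM2457 over DMSO, against the number of far coding DRACH motifs for 44 RNF genes (circles) and 21 TRIM genes (triangles), with medians of the ligases (solid) and of all genes (dashed) in the classes 0 to 3, 4 to 9 and 10 or more, and dotted lines at 1.5-fold. No ligase with 10 or more motifs lies below the lower limit, and TRIM56 with 38 motifs stays within the limits.

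Short half-life in DMSO went together with motif number, with a Spearman correlation of -0.575 over the ligases, so the same comparison was made within classes of DMSO half-life. No ligase with 10 or more far coding motifs had a DMSO half-life of 5 h or more. Between 2 and 5 h, 6 of 13 ligases with 10 or more motifs were longer-lived, against 0 of 7 with 0 to 3. Over all genes of these classes the shares were 49.2% and 19.0%, so the ligases with many motifs were near the background. Under 2 h, 9 of 16 with 10 or more were longer-lived (56.3%, as for all genes of that class), and 1 of 2 with 0 to 3. Without regard to motifs, 10 of 20 ligases under 2 h were longer-lived and 1 shorter-lived, close to the 43.5% and 4.32% of all genes there. At 5 h or more 1 of 19 was longer-lived and 8 shorter-lived, against 22.2% and 36.6% of all genes there. The DMSO half-life is the denominator of the ratio, so an error in it moves both the class and the ratio.

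The class of many motifs was then divided by family. Of 15 RNF genes with 10 or more far coding motifs, 11 were longer-lived, with a median log2 ratio of 0.92, whereas of 14 such TRIM genes 4 were longer-lived, with a median of 0.31. These are 73.3% and 28.6%. All genes of that class, with 45.6% longer-lived and a median of 0.47, lay between the families. The difference between the families was not tested. In that class 10 TRIM genes stayed within the limits. Those with the most motifs were TRIM56 and TRIM41, the latter with 23 (4.59 h in DMSO, 3.91 h in STM2457). Next came TRIM59 with 22 (1.22 and 1.54 h) and TRIM16 with 19 (1.86 and 2.08 h). TRIM16 has a near-identical relative, TRIM16L, so reads may be shared between them. Of the RNF genes of that class, 4 stayed within the limits. Among them were RNF26 with 20 motifs (2.95 h in DMSO, 4.38 h in STM2457) and RNF216 with 19. RNF216, a RING-between-RING ligase, had 3.13 h with DMSO and 2.30 h with STM2457. In the other direction, RNF14 was longer-lived with 4 motifs, TRIM8 with 8 and RNF4 with 0. RNF4 overlaps FAM193A on the same strand, so its reads are uncertain.

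Among the lists of RNF and TRIM genes by role, that of the DNA damage response stood at the top. It leaves out ligases with other names. Of these, RAD18, BRCA1 and BARD1 are on the list of ubiquitin signalling at breaks described below. RAD18 and BRCA1 were shorter-lived, with log2 ratios of -0.97 and -0.80, and BARD1 lay within the limits at -0.52. Longer half-lives were thus not shared by all ligases of this role, and a link with the role was not tested. BRCA1 overlaps other genes on the same strand, so its reads are uncertain. Of 8 on the list, 6 were in the table, and 5 of these were longer-lived and 1 shorter-lived, with a median log2 ratio of 1.65. The list was drawn up with results of this table known and holds RNF168, so its count is a description only. Without RNF168 it was 4 of 5, with a median of 1.54, and for the 59 other ligases it was 13, with a median of -0.03. RNF8, which acts just before RNF168 at breaks and is recruited by MDC1, had 4.40 h with DMSO and 12.8 h with STM2457, a log2 ratio of 1.54. RNF113A, a spliceosome protein that also takes part in the repair of alkylated DNA, had 1.11 and 3.79 h, a log2 ratio of 1.77. It has 18 far coding motifs in a single coding exon. RNF4 had 0.897 and 1.51 h. RNF138, which promotes resection of DNA ends and has 0 far coding motifs, was the exception, at 2.98 h with DMSO and 1.60 h with STM2457. RNF4, RNF8 and RNF138 overlap another gene on the same strand, and without them 3 of 3 were longer-lived. The fits of RNF168, RNF169 and RNF8 exceed a limit set by the time of treatment, explained below. Without these, 2 of 3 were longer-lived, and RNF4, uncertain for its overlap, is among them. Both alternatives were chosen after the data were seen.

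The other genes that read, limit or answer the RNF168 mark were spread over both directions. Of 38 genes on a list of ubiquitin signalling at breaks, 32 were in the table, with a median log2 ratio of -0.17. Of these, 9 were longer-lived (28.1%), 9 shorter-lived (28.1%) and 14 within the limits. These shares were near the 28.5% and 24.9% of all genes. Without RNF8, RNF168 and RNF169 the counts were 6 and 9 of 29, with a median of -0.24. SHLD2, a subunit of the shieldin complex that blocks resection, went from 6.29 h to the ceiling of 69.3 h. The lowest ratios were those of MAD2L2, another shieldin subunit, from 26.1 to 10.9 h, and BRCC3, the deubiquitinase of the BRCA1-A complex, from 13.1 to 6.48 h. So RNF169 and RNF168 lay at the upper end of the list, with RNF8 further down, below SHLD2 and L3MBTL2 (log2 ratio 1.98). The shieldin subunits SHLD2 and MAD2L2 lay at opposite ends. The fits of SHLD2 imply 8.97 times the DMSO abundance, against a limit of 1.54 times set by the time of treatment, explained below.

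**Figure D4:**
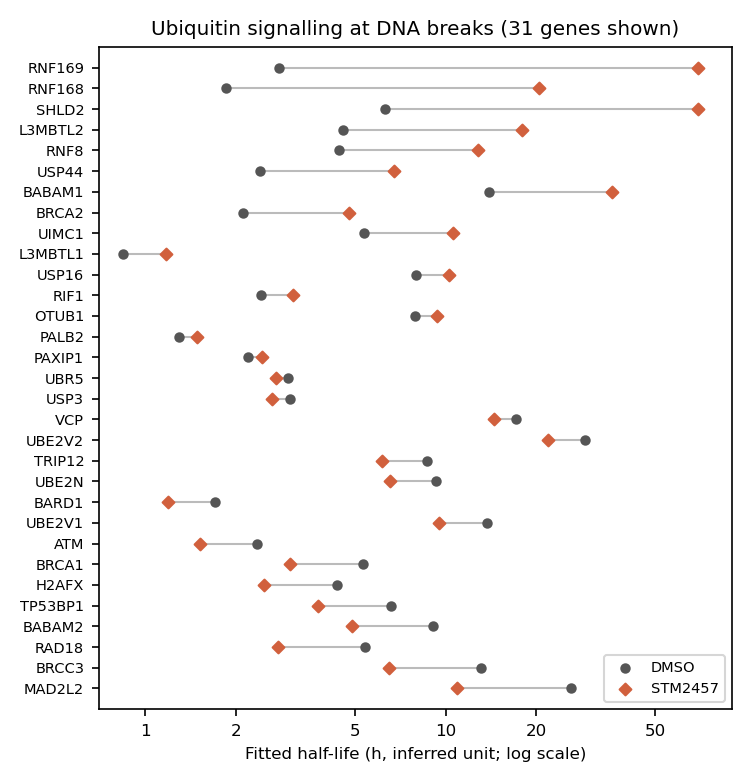
Fitted half-life (log axis, inferred hours) in DMSO (grey circles) and STM2457 (orange diamonds) of the genes of ubiquitin signalling at DNA breaks, ordered by their ratio, with 1 of the 32 not shown. RNF169 and RNF168 are at the top with SHLD2, and MAD2L2 and BRCC3 are at the bottom.

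The small counts of each role list stand beside 28.5% longer-lived and 24.9% shorter-lived of all genes. Chromatin ligases and the TIF1 corepressors gave 0 longer-lived and 1 shorter-lived of 6, with a median log2 ratio of 0.06. TRIM28, the corepressor that KRAB zinc finger proteins bring to DNA, was the shorter-lived one, at 10.7 h with DMSO and 5.49 h with STM2457. Its relative TRIM24, a coregulator of nuclear receptors, was the highest of the list at 1.76 and 2.54 h, within the limits. RNF20 and RNF40, which together ubiquitinate histone H2B, had 6.61 and 7.53 h and 8.69 and 6.13 h. Both stayed within the limits, on opposite sides of 0.

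Ligases anchored in the endoplasmic reticulum or another membrane gave 3 longer-lived and 1 shorter-lived of 10, with a median of 0.30. TRIM13, which resides in the endoplasmic reticulum, had 1.40 h with DMSO and 4.79 h with STM2457, a log2 ratio of 1.77, the highest of the TRIM genes. It has 31 far coding motifs in a coding sequence of 1230 bases, and it overlaps KCNRG on the same strand, so its reads are uncertain. RNF139, a sterol-regulated ligase, had 1.55 and 2.93 h. RNF103 had 1.19 and 2.21 h and shares exons with the readthrough gene RNF103-CHMP3. RNF121, a ligase of the secretory pathway with 0 far coding motifs, was at the lower end, at 9.94 and 5.19 h.

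The PA-TM-RING ligases of endosomes were divided, with 1 longer-lived and 2 shorter-lived of 5 and a median of -0.10. RNF13 had 2.40 h with DMSO and 4.10 h with STM2457, and RNF167, which acts on endosomal trafficking, had 8.57 and 4.09 h. These 2 relatives thus ended at nearly the same half-life in STM2457 from different starts. Among ligases of Wnt, TGF-beta and growth factor receptor signalling, 1 of 4 was longer-lived. This was RNF146, which recognises poly-ADP-ribosylated axin, at 2.39 and 6.08 h, and RNF220 was the lowest at 5.11 and 3.72 h. The RING-between-RING ligases, which pass ubiquitin through a cysteine of their own, gave 1 of 3, with RNF14 highest and RNF216 lowest.

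Innate immune and NF-kappaB ligases were spread over both sides, with 1 longer-lived and 1 shorter-lived of 6 and a median of -0.18. TRIM8, a regulator of NF-kappaB and cytokine signalling, had 2.51 h with DMSO and 5.69 h with STM2457. TRIM14, an adaptor of the mitochondrial antiviral protein MAVS that lacks a RING finger, had 7.97 and 4.26 h. Of 8 TRIM genes with a C-terminal SPRY domain, 2 were longer-lived, TRIM62 the highest at 3.40 and 6.24 h and TRIM4 at 1.55 and 2.52 h, and TRIM14 was the lowest. Of the 2 TRIM genes with NHL repeats, TRIM32, which is mutated in a limb-girdle muscular dystrophy, had 1.59 and 3.04 h, and TRIM2 had 2.62 and 3.16 h. None of the 7 genes on the list of TRIM genes with a COS box was among the genes of the table. That list leaves out relatives with other names, such as MID1, which is given below.

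The remaining shorter-lived ligases had 6 far coding motifs or fewer. RNF181, with 0, had the lowest ratio of all, from 38.1 to 15.8 h, a log2 ratio of -1.27. RNF10 had 14.8 and 8.05 h with 5 motifs, and TRIM37, a ligase that restrains centrosome assembly, had 5.36 and 3.07 h with 4. RNF157 had 6.74 and 4.14 h with 0 motifs, a log2 ratio of -0.70. The 18 ligases on none of the role lists gave 3 longer-lived and 6 shorter-lived, with a median of -0.30. RNF219, at 0.987 and 2.64 h, and RNF34 were among the longer-lived.

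Fitted synthesis rates moved less than half-lives. Their log2 ratio, STM2457 over DMSO, had a median of -0.12 over the ligases (quartiles -0.34 and 0.12) and -0.06 over all genes (quartiles -0.37 and 0.28). Past 1.5-fold, 8 ligases were lower, near the 13.3% of all genes, and 1 was higher, against 12.6% of all genes. The order of the ligases by synthesis rate was nearly kept, with a Spearman correlation of 0.933 between the treatments, against 0.649 for half-lives. Both were close to the values over all genes, 0.929 and 0.654. TRIM11 had the highest synthesis rate in both, 1619 in DMSO and 1562 in STM2457. By family, the median log2 ratio of synthesis was -0.05 for RNF and -0.14 for TRIM genes.

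Synthesis and half-life leaned in opposite directions. Of the 18 longer-lived ligases, 15 had a synthesis log2 ratio below 0, and of the 12 shorter-lived, 9 had it above 0. Over all genes, 54.8% had it below 0, with 71.2% below 0 among the longer-lived and 66.9% above 0 among the shorter-lived. RNF146 had the lowest, -1.36, with a fitted rate of 76.3 in DMSO and 29.8 in STM2457, and RNF181 the highest, 1.26, with 27.6 and 66.4. Multiplied together, the 2 fits of RNF146 imply 0.993 times the DMSO abundance and those of RNF181 0.996 times, although both half-lives passed the 1.5-fold limit. TRIM13 differed from most of the longer-lived, with a synthesis log2 ratio of 0.29. The Spearman correlation of both log2 ratios was -0.607 over the ligases and -0.353 over 8993 genes. Both numbers come from 1 fit per treatment, so a true change and a trade-off within the fit cannot be told apart.

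For the largest shifts the fits can be set against the time of treatment. STM2457 had been present for 6 h at the last harvest if it stayed on during labelling, and the abundance a gene could reach by then, with its fitted synthesis and no decay at all, is an upper limit. For RNF168 the fits imply a steady state of 6.85 times the DMSO abundance, against a limit of 2.39 times. RNF34 had 10.8 against 1.65 times, RNF169 11.4 against 1.68 times, RNF14 2.84 against 1.49 times and RNF8 2.33 against 1.76 times. These 5 ligases, all RNF genes, exceeded the limit. They are 7.69% of the ligases, against 23.4% of all genes. A level above the limit follows from a long fitted half-life in STM2457 and does not by itself make that half-life impossible, and whether the fits assume a steady state was not tested. RNF113A, at 2.87 against 4.15 times, and TRIM13, at 4.16 against 4.61 times, stayed under it.

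**Figure D5:**
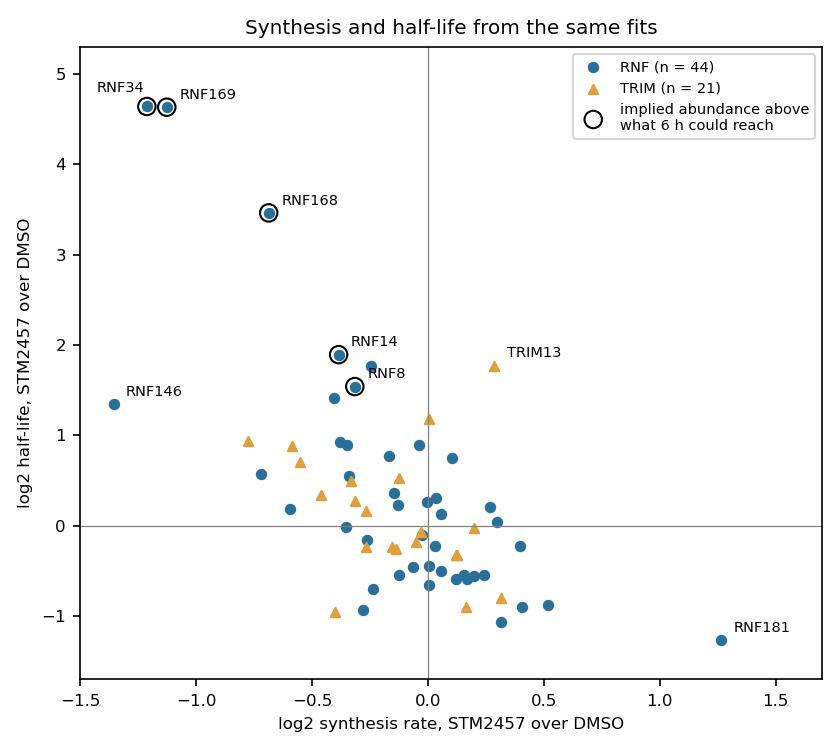
Log2 ratio of half-lives against log2 ratio of fitted synthesis rates, STM2457 over DMSO, for 44 RNF genes (circles) and 21 TRIM genes (triangles), with rings around the 5 whose implied abundance exceeds the limit set by 6 h of synthesis with no decay. Points run from RNF34 and RNF169 at upper left to RNF181 at lower right.

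The partners and relatives of the ligases were set beside them from lists drawn up in the same way. Of 30 E2 enzymes that work with RING ligases, 28 were in the table, with a median log2 ratio of -0.43. Of these, 6 were longer-lived (21.4%) and 9 shorter-lived (32.1%), against 28.5% and 24.9% of all genes. UBE2N, UBE2V1 and UBE2V2, the E2 subunits that build K63-linked chains with RNF8, were within the limits at -0.51, -0.53 and -0.42. Of 90 RING ligases with other names, 62 were in the table, and 25 were longer-lived (40.3%) and 11 shorter-lived, with a median of 0.44. Ligases named otherwise thus leaned further to longer half-lives than the RNF and TRIM genes, a difference that was not tested. Of these 62, 3 were at the ceiling in STM2457 and 13 exceeded the limit set by the time of treatment. That limit was exceeded by 5 of the 65 RNF and TRIM genes and by 23.4% of all genes. MID1, a TRIM relative, had 1.77 h with DMSO and 3.23 h with STM2457, and PML, another, had 4.01 and 4.90 h.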

How the data were processed

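SLAM-seq of HEK293T WT cells in 18 samples gave 1 table of the whole series. The submitters' processing notes name FastQC 0.11.9, STAR 2.7.8a and the build GRCh38.p12. For the kinetic fits, the tool, annotation, gene filter and libraries used were not given in the sources used here. Half-lives and synthesis rates, and log2 ratios of STM2457 over DMSO, were deposited by the authors. Per the file headers they are per gene and treatment. Log2 ratios recomputed from the half-lives differed from the authors' deposited ones by at most 1.27e-14 over 8996 genes. Libraries of the labels' protocol read 3′ ends, so transcript isoforms that share an end are not separated, and overlapping genes are uncertain.

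The members and lists were chosen with earlier results of these data known. Counts past 1.5-fold and medians were set beside all genes; no test was possible. The text names RNF168, the 8 largest and the 8 smallest log2 ratios past 1.5-fold where each half-life lay from 0.5 to 24 h, members at the ceiling in STM2457 alone (within 1e-06 of it), the 3 shortest-lived and 3 longest-lived RNF and TRIM genes in DMSO, the extremes of each list of members, and up to 3 pathway genes at each end. A few genes are counted but not reported here by name. Other genes were named after their values were seen, for their motif number, place at a limit, overlap or role.

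Abundance was synthesis times half-life over ln 2. Motifs were counted in the longest complete coding transcript of GENCODE release 29, which matched 8982 of 8996 identifiers and gave 8611 coding transcripts, those of all 65 members included. Scripts were tested on simulated data. Work was done in Python 3.11.15 with pandas 2.3.3, NumPy 2.4.6, Matplotlib 3.10.9 and SciPy 1.17.1. Alternatives changed the size rule, the range, the ceiling, overlaps, membership, centring, the summary, the motif, its distance to a junction and the split.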

Additional observations from a re-analysis of the deposited data

How the results depend on the processing

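No paired analysis was possible because the table has 1 fitted value per gene and treatment and no result comes from a test. Leaving out a sample was not possible for the same reason. Under the alternatives, 20 values of the main comparisons moved little and 21 moved by more than the tolerance (0.1 on the log2 scale, or 1.5 times for a count). The 18 longer-lived of 65 ligases became 10 past 2-fold and 44 of 129 with ligases of other names added. The 12 shorter-lived became 2 past 2-fold, 21 past a ratio of 5 to 4 and 23 of 129 with the others added. Shares of all genes were not computed at these other ratios, so the counts there have no background beside them. The median log2 ratio of 0.04 became 0.20 without the 21 ligases that overlap a gene on the same strand, 0.21 with the others added and 0.29 as a mean. The difference of RNF and TRIM medians, 0.11, became 0.28 without overlaps and 0.22 as means, and that of log2 half-lives in DMSO, 0.42, became 0.17 without overlaps. The rank of RNF168, 3, became 1 in the range of 0.5 to 24 h and 1 without the ceiling, 5 with the others added and 300 over all genes. The step from few to many far coding motifs (medians of -0.55 and 0.70) became a difference of 0.89 at 50 bases from a junction, 1.39 at 200 bases, 0.40 for the motif GGACT alone (1 or more less 0), 1.09 split at the median, and, in alternatives chosen after the data were seen, 1.12 in the range and 1.12 without the ceiling. The RNF median of 0.08 became 0.21 without overlaps and 0.36 as a mean, and the TRIM median of -0.03 was 0.14 as a mean. The causes of these moves were not tested beyond the smaller or larger sets of genes they use. Depth and replicate spread are unknown, which limits every value.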
